A study of Mus musculus with 7 samples.

Results

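GABA-A receptor subunit genes were examined in mouse prefrontal cortex (PFC). The members were the protein-coding genes named Gabra2, Gabra3, Gabra4, Gabra5, Gabrb1, Gabrb2 and Gabrd, and each name matched 1 row, so that 7 of the 55416 genes in the table, of which 21885 were protein-coding, were followed. All 7 had enough reads for testing and were among the 17254 genes tested. PFC tissue of female wild-type C57BL/6 mice was profiled in 7 libraries, namely 3 Ctr, 2 Ref and 2 Alt. Ctr mice received an empty adeno-associated virus (AAV), Ref mice an AAV with the reference C allele of PAXIP1-AS1, and Alt mice an AAV with the alternative G allele. PAXIP1-AS1 is a human long noncoding RNA without a mouse counterpart. All vectors, the empty one included, carried EGFP under the human synapsin promoter, which is active in neurons, and virus was injected into the PFC on both sides. Age at tissue collection, and whether a library came from 1 mouse or from pooled mice, were not given in the sources used here. p-values therefore measure the spread between these libraries, which may be partly technical.

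GABA-A receptors are chloride channels opened by GABA, the main inhibitory transmitter of the cortex, and each channel is a ring of subunits, usually with α and β subunits that form the GABA binding sites together with a γ or δ subunit. The α subunit sets much of the pharmacology and location of a receptor. Receptors with α2 or α3 sit mostly at synapses, whereas those with α5, or with α4 and δ, lie largely outside synapses and carry the tonic inhibitory current. The β subunits are needed for assembly and surface delivery, and many subunit genes lie in clusters that arose by duplication.

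In the coordinates of the deposited table, whose mouse genome build is not given in the sources used here, 3 members form a cluster on chromosome 5. These are Gabra2 at chr5:71114940-71253192 and Gabra4 at chr5:71727092-71815651, both on the minus strand, and Gabrb1 at chr5:71815456-72306380 on the plus strand. The starts of Gabra4 and Gabrb1 face away from each other and overlap by 196 bases. No other member has a second member within 2 Mb. Gabra3 lies on chromosome X, Gabra5 on chromosome 7, Gabrb2 on chromosome 11 and Gabrd on chromosome 4.

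RefSeq promoter windows of GRCm38.p6, reaching from 250 bases before to 50 bases after an annotated start, were found for 6 of the 7 members, 10 windows in all, and there was none for Gabrd. The stretches shown include those before the starts of the divergent pair Gabra4 and Gabrb1, whose Alt vs Ctr differences lay furthest apart within the cluster. The others lie before starts of Gabrb2, which had the largest Alt vs Ctr difference of the members. Bases inside annotated exons of coding transcripts were left out, and for Gabrb1 the downstream start is shown because the window of its upstream start lies mostly in the first exon of Gabra4. The windows were searched on both strands for 3 motifs, which are the GC box GGGCGG, the TATA box TATAAA and the motif of the zinc finger repressor ZGPAT in its forms GGAGAAAA, GGAGAAGA, GGAGGAAA and GGAGGAGA. Capitals mark matches on either strand. Of all 32851 RefSeq windows, 35.7% held a GC box, 13.6% a TATA box and 11.9% a ZGPAT motif.
Gabra4, chr5:71658364-71658558, minus strand: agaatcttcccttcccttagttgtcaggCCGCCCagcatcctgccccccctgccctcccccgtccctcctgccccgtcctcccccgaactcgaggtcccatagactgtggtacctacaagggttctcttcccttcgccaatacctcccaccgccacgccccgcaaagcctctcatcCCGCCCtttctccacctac
Gabrb1 downstream start, chr5:71699682-71699931, plus strand: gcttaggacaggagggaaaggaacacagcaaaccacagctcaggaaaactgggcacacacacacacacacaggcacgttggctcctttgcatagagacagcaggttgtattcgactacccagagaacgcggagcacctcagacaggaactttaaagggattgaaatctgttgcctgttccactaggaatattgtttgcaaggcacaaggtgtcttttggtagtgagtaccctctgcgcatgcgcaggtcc
Gabrb2 first start, chr11:42420190-42420439, plus strand: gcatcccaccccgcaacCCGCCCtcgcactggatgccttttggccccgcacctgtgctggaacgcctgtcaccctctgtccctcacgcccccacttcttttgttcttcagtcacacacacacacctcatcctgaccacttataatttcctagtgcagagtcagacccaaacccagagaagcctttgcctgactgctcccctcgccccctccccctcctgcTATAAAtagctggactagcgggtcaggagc
Gabrb2 second start, chr11:42420524-42420773, plus strand: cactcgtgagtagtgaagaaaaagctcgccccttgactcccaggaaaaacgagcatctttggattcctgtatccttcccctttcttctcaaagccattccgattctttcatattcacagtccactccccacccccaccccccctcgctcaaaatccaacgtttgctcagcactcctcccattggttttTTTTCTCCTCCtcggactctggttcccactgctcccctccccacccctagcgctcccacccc

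The first Gabrb2 stretch held a TATA box at position -30 from its start and a GC box on the opposite strand, and the Gabra4 stretch held 2 GC boxes on the opposite strand. In the second Gabrb2 stretch the capitals mark 2 overlapping ZGPAT motifs on the opposite strand, at positions -62 and -59. Just after its start, at position 32, Gabra4 also held a ZGPAT motif on its own strand, within aaagggagGGAGAAAAgcagaaag. Neither Gabrb1 window held any of the 3 motifs. These matches describe the letters of the windows and were not tested for binding.

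The libraries held between 16655697 and 20750857 counted reads, with the lowest total in Alt replicate 1. Alt replicate 1 stood apart from the others in a way that followed gene length, because its median log2 deviation from the mean of the 3 Ctr libraries was -0.61 in the shortest length quintile of genes and 0.41 in the longest. The same medians for Alt replicate 2 were -0.19 and 0.14, and those of the other 5 libraries lay between -0.10 and 0.11. The chi-square per degree of freedom between replicates was 56.3 for the Alt libraries and between 18.2 and 24.4 within Ctr and Ref. Values without Alt replicate 1, and values with a correction that removed the trend with gene length from each library, are therefore given beside the Alt differences of the members.

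Per kilobase of gene length, Gabra3 had the highest level of the members, with 60.1 ± 7.16 TMM-normalized CPM (read counts scaled to library size) per kb (SD, n = 7 libraries), and its values ran from 50.9 to 69.7. Gabrb2 followed with 27.0 ± 13.4 and ran from 11.4 to 53.9, Gabra4 with 25.6 ± 3.40 from 19.5 to 30.3, Gabra5 with 22.9 ± 3.18 from 19.0 to 26.5, and Gabrb1 with 21.6 ± 9.65 from 14.1 to 42.5. Gabra2 (12.8 ± 3.39, from 9.74 to 19.6) and Gabrd (12.5 ± 3.55, from 5.23 to 15.6) had the lowest means. Each neighbouring pair in this order had overlapping ranges over the libraries, including Gabra3 and Gabrb2. The overlap of these 2 came from Gabrb2 in Alt replicate 1, at 53.9, where Gabra3 was at 69.7. In the Ctr libraries alone the means were 57.9 for Gabra3, 27.6 for Gabra4, 24.0 for Gabra5 and 19.0 for Gabrb2. They were 17.1 for Gabrb1, 14.3 for Gabrd and 12.3 for Gabra2. Gabra3 made up 29.6% to 34.2% of the summed per-kilobase level of the 7 members in a library. The share of Gabrb2 ranged from 7.20% (Ctr replicate 1) to 22.8% (Alt replicate 1), and that of Gabrd from 2.22% (Alt replicate 1) to 9.51% (Ref replicate 1). In bulk tissue, fewer cells that express a subunit and less RNA per cell cannot be told apart.

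**Figure D1:**
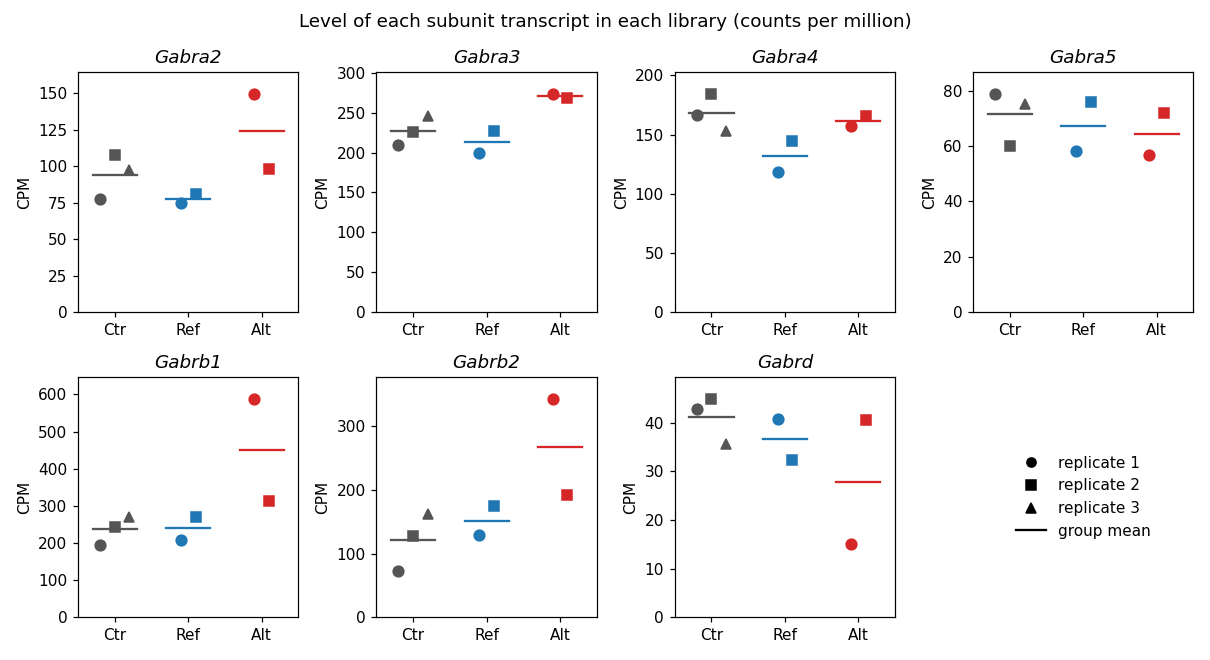
Level of each subunit transcript in each library, as CPM after TMM normalization on axes that start at 0, with 1 panel per gene, 1 marker per library and a line at the group mean. Both Alt libraries lie above all Ctr libraries for Gabra3, Gabrb1 and Gabrb2. The share of all tested genes separated in this way was not counted. Alt replicate 1 is far from Alt replicate 2 for Gabra2, Gabrb1, Gabrb2 and Gabrd.

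The design asks what differed with the G allele transcript (Alt vs Ctr), what differed between the alleles (Alt vs Ref) and what differed with the C allele transcript (Ref vs Ctr). In Alt vs Ctr, the β subunit transcripts Gabrb1 and Gabrb2 were 1.90-fold and 2.22-fold higher on average, while the 5 other members did not reach the level of an unadjusted p under 0.05 in the edgeR quasi-likelihood test. At this level 2 of the 7 members were called, both higher, against 19.8% of all tested genes. In Alt vs Ref 3 members were called, namely Gabra2, Gabrb1 and Gabrb2, all higher, against 15.5% of all tested genes. In Ref vs Ctr 1 member was called, the lower Gabra4, against 3.14% of all tested genes. No member passed an adjusted p of 0.05 in any comparison, where edgeR called 0 genes in Alt vs Ctr, 1 in Alt vs Ref and 0 in Ref vs Ctr of all 17254, whereas DESeq2 called 2, 1 and 0 members against 6.36%, 2.49% and 0.0348% of all genes. Without Alt replicate 2, so that Alt replicate 1 stood alone for Alt and was assumed to vary like the other groups, 4 members passed an adjusted p of 0.05 in both Alt comparisons, namely Gabra2, Gabrb1 and Gabrb2, which were higher, and Gabrd, which was lower. In that fit 3451 of 18848 tested genes passed in Alt vs Ctr (18.3%) and 2708 in Alt vs Ref (14.4%). The 3 comparisons share libraries, so their values are not independent of each other.

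**Figure D2:**
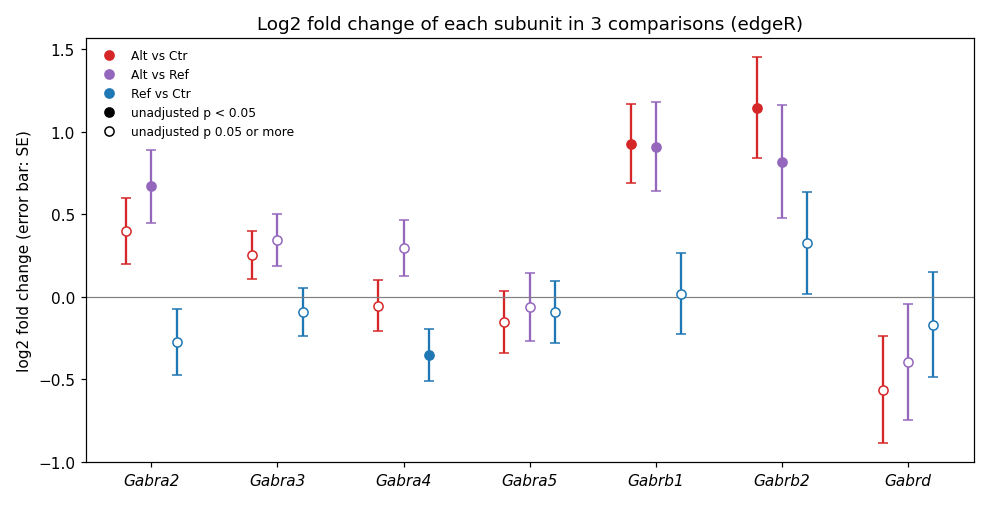
Log2 fold change of each subunit with its standard error in Alt vs Ctr, Alt vs Ref and Ref vs Ctr, from the edgeR fit of all 7 libraries. Filled markers have an unadjusted p under 0.05, and these are Gabrb1 and Gabrb2 in both Alt comparisons, Gabra2 in Alt vs Ref and Gabra4 in Ref vs Ctr.

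Gabrb2 encodes β2, a β subunit common in adult cortical receptors. Its level was 72.3, 127 and 162 CPM in the 3 Ctr libraries, 129 and 174 CPM in Ref and 343 and 193 CPM in Alt. Both Alt libraries lay above every Ctr and every Ref library, although the Ctr libraries themselves spread widely, with Ctr replicate 1 the lowest of the 7. For this and the members below, the share of all tested genes with such a separation was not counted. In Alt vs Ctr the log2 fold change was 1.15 ± 0.31 (SE) with edgeR adjusted p = 0.121, and DESeq2 gave 1.18 with adjusted p = 0.00618. The Alt vs Ref log2 fold change was 0.82 ± 0.34 (edgeR adjusted p = 0.292). Ref and Ctr overlapped, with a log2 fold change of 0.33 ± 0.31 (edgeR adjusted p = 1). With the length correction the Alt vs Ctr value was 1.06 (edgeR adjusted p = 0.144), and without Alt replicate 1 it was 0.68 (edgeR adjusted p = 0.593), both with an unadjusted p under 0.05. The Alt vs Ref value was 0.75 with the length correction, still with an unadjusted p under 0.05, and this call did not hold without Alt replicate 1 (0.36, or 0.33 with the length correction as well), without Ref replicate 1 (0.60) or without Ctr replicate 2 (0.82).

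Gabrb1 encodes β1, a β subunit present in neurons and in astrocytes. Its level was 196, 244 and 270.0 CPM in Ctr, 209 and 271 CPM in Ref, and 588 and 312 CPM in Alt. The Alt libraries were again the highest of the 7, and Alt replicate 1 was far above Alt replicate 2. The log2 fold change was 0.93 ± 0.24 in Alt vs Ctr (edgeR adjusted p = 0.120) and 0.91 ± 0.27 in Alt vs Ref (edgeR adjusted p = 0.236). DESeq2 gave 0.96 in Alt vs Ctr with an adjusted p of 0.00697, and 0.95 in Alt vs Ref with an adjusted p of 0.0263. Ref and Ctr differed by a log2 fold change of 0.02 ± 0.24. Gabrb1 was longer, at 13838 bases of exon, than 96.8% of the tested genes, and its longest coding transcript in the GRCm38 annotation holds 12228 bases of 3' UTR. The length correction brought the Alt vs Ctr value to 0.50 (edgeR adjusted p = 0.174), still with an unadjusted p under 0.05. Leaving out Alt replicate 1 brought it to 0.40 (edgeR adjusted p = 0.625), and both together brought it to 0.21 (edgeR adjusted p = 0.777), and neither reached that level. In Alt vs Ref the length correction brought the value to 0.54, with an unadjusted p under 0.05, whereas leaving out Alt replicate 1 brought it to 0.39, and both together to 0.25, which did not reach that level.

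Gabra3 encodes α3, an α subunit that is abundant in early life and persists in adult cortex. Its level was 209.7, 226 and 246 CPM in Ctr, 199.8 and 227 CPM in Ref, and 274 and 268 CPM in Alt. The 2 Alt values were close together and above all others. The log2 fold change was 0.25 ± 0.14 in Alt vs Ctr (edgeR adjusted p = 0.350) and 0.34 ± 0.16 in Alt vs Ref (edgeR adjusted p = 0.327), and neither passed the test. Gabra3 lies near the median of gene length, and in the length-corrected fit its Alt vs Ctr value was 0.39 (edgeR adjusted p = 0.201) and its Alt vs Ref value 0.48 (edgeR adjusted p = 0.258), both with an unadjusted p under 0.05. Without Alt replicate 1 the Alt vs Ctr value was 0.24 and the Alt vs Ref value 0.34.

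Gabra2 encodes α2, a synaptic α subunit enriched at the axon initial segment of pyramidal cells. Its level was 77.4, 108 and 97.2 CPM in Ctr, 74.4 and 81.2 CPM in Ref, and 149.6 and 98.3 CPM in Alt. Alt replicate 1 was the highest library and Alt replicate 2 lay within the Ctr range, while both Ref libraries lay below both Alt libraries. The log2 fold change was 0.40 ± 0.20 in Alt vs Ctr (edgeR adjusted p = 0.292) and 0.67 ± 0.22 in Alt vs Ref (edgeR adjusted p = 0.236). Without Alt replicate 1 these values were 0.07 and 0.35, and the Alt vs Ref call was lost, as it was without Ref replicate 1 (0.60), with the GC correction (0.35) and with the length correction without Alt replicate 1 (0.29). The length correction alone gave 0.24 in Alt vs Ctr and 0.54 in Alt vs Ref, the latter with an unadjusted p under 0.05.

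Gabra4 encodes α4, the usual partner of δ in extrasynaptic receptors of the forebrain. Its level was 166, 185 and 153 CPM in Ctr, 119 and 145 CPM in Ref, and 158 and 166 CPM in Alt. The Ref libraries were the lowest of the 7, and the Alt libraries lay within the Ctr range. The log2 fold change of Ref vs Ctr was -0.35 ± 0.16 with edgeR adjusted p = 1. The call was lost without Ref replicate 1 (-0.21), without Ctr replicate 1 (-0.36) and without Ctr replicate 2 (-0.28), and also without the low-count filter (-0.34), with the replicate block (-0.42) and with the GC correction (-0.28). Alt vs Ctr gave -0.05 ± 0.16 and Alt vs Ref 0.30 ± 0.17 (edgeR adjusted p = 0.421). These values were -0.12 and 0.26 with the length correction, and -0.02 and 0.34 without Alt replicate 1.

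Gabra5 encodes α5, which is best known from extrasynaptic receptors of hippocampal and deep cortical pyramidal cells. Its level was 78.9, 60.1 and 75.3 CPM in Ctr, 58.2 and 76.0 CPM in Ref, and 56.6 and 71.9 CPM in Alt. All 3 groups overlapped, and no comparison passed the test, with log2 fold changes of -0.15 ± 0.19 in Alt vs Ctr, -0.06 ± 0.21 in Alt vs Ref and -0.09 ± 0.19 in Ref vs Ctr. The Alt vs Ctr and Alt vs Ref values were 0.09 and 0.17 with the length correction, and 0.01 and 0.11 without Alt replicate 1. The span of Gabra5 overlaps that of a gene on the opposite strand by 90368 bases.

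Gabrd encodes δ, which confers high GABA affinity on extrasynaptic receptors. Its level was 42.9, 44.9 and 35.6 CPM in Ctr, 40.8 and 32.3 CPM in Ref, and 15.0 and 40.5 CPM in Alt. Alt replicate 1 was the lowest of the 7 libraries by a wide margin, at 231 reads, and Alt replicate 2 lay within the Ctr range. The log2 fold change was -0.56 ± 0.32 in Alt vs Ctr (edgeR adjusted p = 0.353), -0.39 ± 0.35 in Alt vs Ref (edgeR adjusted p = 0.631) and -0.17 ± 0.32 in Ref vs Ctr (edgeR adjusted p = 1). With the length correction the Alt vs Ctr value was -0.36 and the Alt vs Ref value -0.18. Without Alt replicate 1 the Alt vs Ctr value was -0.02 and the Alt vs Ref value 0.16, and without Alt replicate 2 they were -1.45 (edgeR adjusted p = 0.00162) and -1.27 (edgeR adjusted p = 0.00555). Gabrd is among the shorter members, with 2875 bases, and has the highest GC content of them, with 54.7% against 38.4% to 47.1% for the others.

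Within the chromosome 5 cluster the ratios of the 3 genes varied between libraries. The log2 ratio of Gabrb1 to Gabra4 per kilobase was -0.95, -0.78 and -0.36 in Ctr, -0.37 and -0.28 in Ref and 0.71 and -0.27 in Alt. Alt lay above Ctr in both libraries, but Alt replicate 2 was close to the Ref libraries, and Gabrb1 exceeded Gabra4 per kilobase in Alt replicate 1 alone. The means differed by 0.92 between Alt and Ctr in an exact two-sided permutation test with p = 0.1, which is the smallest p that 2 against 3 libraries allow. Without Alt replicate 1 this difference was 0.43, and the length-corrected member values differed by 0.62. Gabrb1 to Gabra2 gave 0.48, 0.32 and 0.62 in Ctr, 0.63 and 0.88 in Ref and 1.12 and 0.81 in Alt, a mean difference of 0.49 between Alt and Ctr with the same exact permutation p of 0.1, and this was 0.34 without Alt replicate 1 and 0.26 with the length correction. The ratio of Gabra2 to Gabra4 overlapped between Alt and Ctr, with a mean difference of 0.43 (exact permutation p = 0.3), which was 0.09 without Alt replicate 1 and 0.36 with the length correction. In all, 7 such ratios were examined in 3 comparisons each, and with 2 against 2 libraries the smallest p was 0.333. Reads in the 196 bases shared by Gabra4 and Gabrb1 can be assigned only by strand, and the strand setting of the counting was not given in the sources used here.

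**Figure D3:**
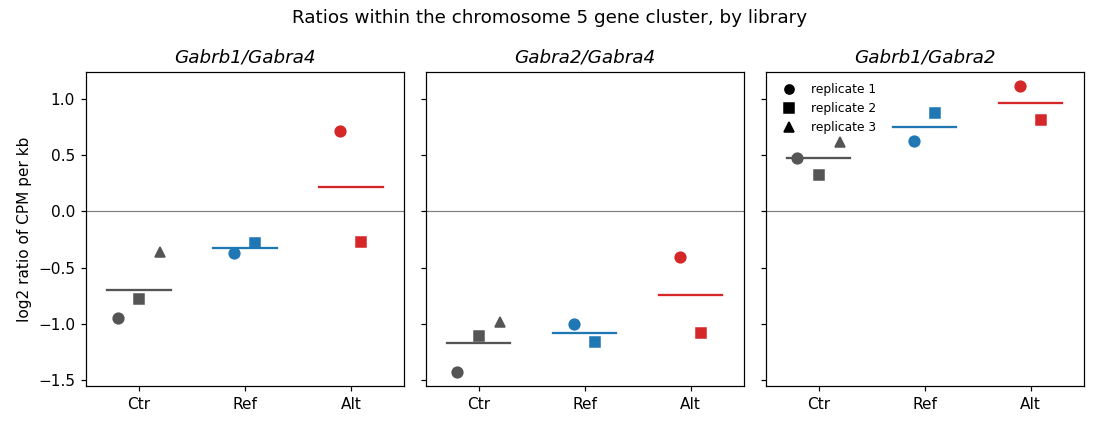
Log2 ratio of CPM per kb for the 3 pairs of genes in the chromosome 5 cluster, with 1 marker per library and a line at the group mean. For Gabrb1/Gabra4 and Gabrb1/Gabra2 both Alt libraries lie above the 3 Ctr libraries, and for Gabra2/Gabra4 they overlap them.

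Over the 7 members the median log2 fold change was 0.25 in Alt vs Ctr, against -0.03 over all tested genes, with 4 members above and 3 below 0, and without Alt replicate 1 it was 0.07. It was 0.34 against -0.04 in Alt vs Ref and -0.09 against 0.01 in Ref vs Ctr. The largest and the smallest member values in Alt vs Ctr were 1.15 for Gabrb2 and -0.56 for Gabrd. Gene length moved with these values. The median Alt vs Ctr log2 fold change of all tested genes was -0.37 in the shortest quintile of gene length and 0.27 in the longest, whereas the Ref vs Ctr medians lay between -0.01 and 0.03. Gabra2 and Gabrb1 fall in the longest quintile, Gabra4 and Gabrb2 in the fourth, Gabra3 in the third, and Gabra5 and Gabrd in the second. Gabrb2 and Gabra4 have similar lengths, of 6360 and 6083 bases, and had Alt vs Ctr values of 1.15 and -0.05. The part of gene length in the differences beyond this correction was not tested.

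**Figure D4:**
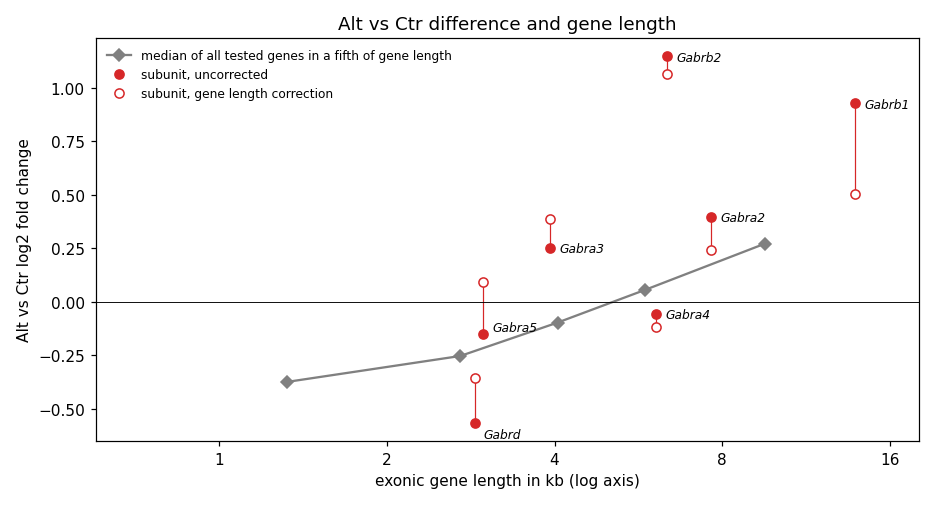
Alt vs Ctr log2 fold change against exonic gene length in kb on a log axis, for the 7 subunits before (filled) and after (open) the gene length correction, with the median of all tested genes in each length quintile in grey. The grey medians run from -0.37 to 0.27, and Gabrb2 and Gabrb1 lie above them before and above 0 after the correction.

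The correction for GC content gave Alt vs Ctr values of 1.09 for Gabrb2 and 0.80 for Gabrb1. Of the 16 alternatives to the Alt vs Ctr fit, Gabrb2 had an unadjusted edgeR or DESeq2 p under 0.05 in 16 and Gabrb1 in 14. Each had an adjusted p under 0.05 in 4. The alternatives that kept both Alt libraries called 11.8% to 21.2% of all tested genes at the unadjusted level. Gabra3 kept a positive sign in all 16 and had an unadjusted p under 0.05 in 1. The 2 exceptions for Gabrb1 were the fits without Alt replicate 1.

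**Figure D5:**
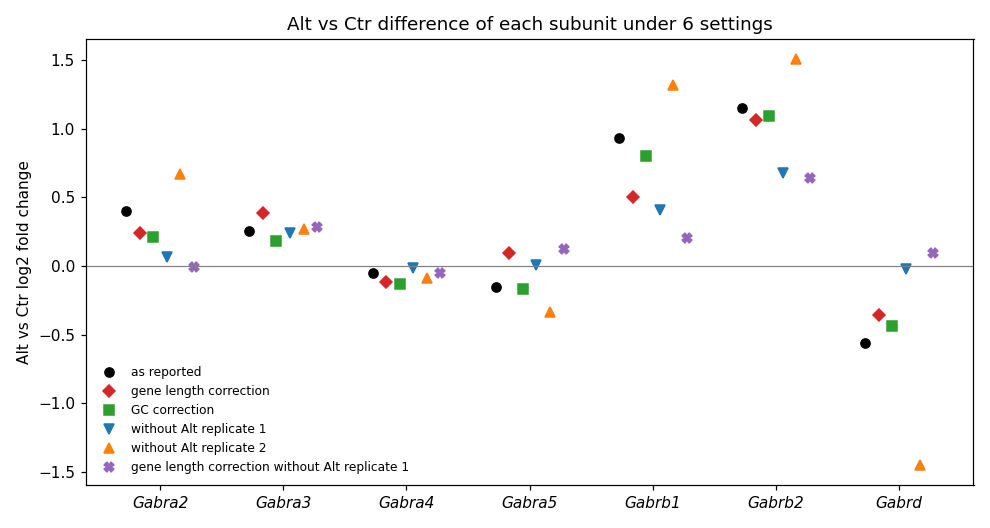
Alt vs Ctr log2 fold change of each subunit as reported and under 5 other settings. Gabrb2, Gabrb1 and Gabra3 stay above 0 under every setting drawn, while Gabra5 and Gabrd take both signs and Gabra2 reaches -0.01 when Alt replicate 1 is left out with the length correction.

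Across the 7 libraries, log2 levels of Gabrb1 and Gabrb2 had a Pearson r of 0.93, and Gabrb1 and Gabrd one of -0.92, the highest and the lowest of the 21 member pairs. These coefficients describe 7 libraries that share the length trend of Alt replicate 1 and are not tests. Among 9101 protein-coding genes with a mean of at least 10 CPM, the genes whose profile was most like the mean standardized profile of the members included Plcb1 (r = 1.00), Cntn4 (r = 0.98), Nckap1 (r = 0.97) and Slmap (r = 0.97). The mean profile was lowest in Ref replicate 1, at -0.87 SD units, and highest in the Alt libraries, at 0.51 and 0.48. It averages members that ran in opposite directions, such as Gabrb1 and Gabrd, and need not match any single member. The listed genes are among the highest of the search by selection, and Plcb1 itself had an Alt vs Ctr log2 fold change of 0.17.

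Other genes of GABA signaling were taken from 5 lists, whose counts stand against the 19.8% of all tested genes called in Alt vs Ctr, or 8.14% without Alt replicate 1. Of 12 other GABA-A subunit genes 7 were tested, and in Alt vs Ctr 2 were higher and 0 lower at an unadjusted p under 0.05, including Gabrg3, a γ subunit, with a log2 fold change of 0.92 (edgeR adjusted p = 0.120), and without Alt replicate 1 it was the 1 that remained (0.63). Of 20 genes of the inhibitory postsynaptic scaffold and of receptor-associated proteins, 4 were higher and 1 was lower. The higher genes were Iqsec3, an exchange factor of inhibitory synapses (0.80), Shisa7, an auxiliary subunit of GABA-A receptors (0.70), the synaptic adhesion regulator Mdga2 (0.70) and Plcl1, which binds receptor β subunits (0.52). The lower gene was Gabarap, a receptor-associated trafficking protein (-0.71). Gene length moved with these values as well, because Gabrg3, Iqsec3 and Mdga2 fall in the longest length quintile and Gabarap, with 1844 bases, in the shortest. Without Alt replicate 1 only Iqsec3 (0.54) and Shisa7 (0.51) of these 5 scaffold and associated genes kept the call, and with the length correction Iqsec3 (0.40), Shisa7 (0.59) and Plcl1 (0.42) kept it, the adhesion gene Nlgn3 (-0.54) was then called lower, and Mdga2 (0.17) and Gabarap (-0.32) lost it. The scaffold gene Gphn, which encodes gephyrin, had a value of -0.04.

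Of 8 genes for GABA synthesis, packaging, uptake and breakdown, 0 passed this level in Alt vs Ctr. The synthesis enzymes Gad1 and Gad2 had log2 fold changes of -0.35 and 0.16, and with the length correction Gad1 had a value of -0.49 at an unadjusted p under 0.05. Of 6 GABA-B receptor genes 3 were higher and 0 lower, and these were the auxiliary subunits Kctd16 (1.08), Kctd12b (0.84) and Kctd12 (0.71), all called with the length correction and the last 2 without Alt replicate 1 (1.04 and 0.52), while the receptor genes Gabbr1 and Gabbr2 had values of 0.14 and 0.34. Of 4 chloride transporters 1 was higher, Slc12a7 (1.18), which is in the longest length quintile and kept the call with the length correction (0.80) but lost it without Alt replicate 1 (0.67), and the neuronal chloride exporter gene Slc12a5 had a value of -0.07. In Alt vs Ref the counts of higher and lower genes in the 5 lists, in the same order, were 2 and 0, 1 and 1, 0 and 0, 2 and 0, and 1 and 0, against 15.5% of all tested genes called. In Ref vs Ctr they were 0 and 1, 1 and 0, 1 and 0, 0 and 0, and 0 and 0, against 3.14%.

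The labelled tissue was checked against marker lists. Of the excitatory neuron markers 7 of 7 were tested, among them the cortical transcription factor gene Tbr1 at 214 CPM in Ctr, with a summed level of 4533 to 5101 CPM in Ctr, 5236 to 5290 in Ref and 5796 to 5920 in Alt. Camk2a (3109 CPM in Ctr) and Slc17a7 (1214 CPM in Ctr) made up most of this sum. The members of the list did not move one way in Alt vs Ctr, with 3 values above and 4 below 0 and a median of -0.08. Camk2a and Slc17a7 were higher (both 0.32) and Neurod6 was lower (-0.65) at an unadjusted edgeR p under 0.05. With the length correction Slc17a7 alone of these kept the call. Interneuron markers (8 of 8 tested) summed to 293 to 376 CPM in Ctr, 277 to 284 in Ref and 261 to 265 in Alt, and 3 of them, Sst (-1.15), Pvalb (-0.84) and Vip (-0.60), were lower in Alt vs Ctr at an unadjusted edgeR p under 0.05, the level passed by 19.8% of all tested genes. Sst and Pvalb, with 721 and 1041 bases, are in the shortest length quintile, whose median was -0.37. Without Alt replicate 1 the values were -0.77 for Sst, -0.54 for Pvalb and -0.24 for Vip, and with the length correction -0.75, -0.39 and -0.43, and Sst alone of the 3 kept the call under each of these settings. Astrocyte markers (7 of 7 tested) summed to 4936 to 6620 CPM in Ctr, 6712 to 8378 in Ref and 7736 to 11159 in Alt. Slc1a2 made up most of this sum, with group means of 4262, 5682 and 7746 CPM, and was the 1 marker called in Alt vs Ctr (0.86). It is in the longest length quintile, and its value was 0.47 with the length correction and 0.49 without Alt replicate 1. The 6 other astrocyte markers had Alt vs Ctr values between -0.12 (Gfap) and 0.36 (Aqp4). Oligodendrocyte markers (8 of 8 tested) summed to 2278 to 3182 CPM in Ctr, 3855 to 4763 in Ref and 2215 to 2723 in Alt, and 7 of 8 were higher in Ref vs Ctr at an unadjusted edgeR p under 0.05 (median 0.78) and 7 of 8 lower in Alt vs Ref (median -0.92), against 3.14% and 15.5% of all tested genes. Their part in the subunit differences was not tested.

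Oligodendrocyte precursor markers (4 of 4 tested) summed to 221 to 292 CPM in Ctr, 330 to 356 in Ref and 274 to 316 in Alt. Microglial markers (7 of 7 tested) summed to 433 to 494, 514 to 518 and 423 to 471 CPM in the same order. In Alt vs Ctr the complement genes C1qa (-1.09) and C1qb (-0.81), both in the shortest length quintile, were lower and the chemokine receptor gene Cx3cr1 (0.36) higher at an unadjusted edgeR p under 0.05, and C1qa and Cx3cr1 kept the call with the length correction (-0.63 and 0.43) and without Alt replicate 1 (-0.82 and 0.41). In Alt vs Ref 3 of 7 microglial markers were lower at an unadjusted edgeR p under 0.05, against 15.5% of all tested genes. Of these, C1qa kept the call with the length correction. Calls in Alt vs Ctr in the remaining lists were 2 lower of 8 oligodendrocyte markers and 2 higher of 4 precursor markers. They were 1 higher of 6 endothelial and mural markers, 0 of 7 striatal markers and 1 higher of 2 cerebellar markers. The share of all tested genes called was 19.8%. With the length correction the counts, in this order, were 1 lower, 1 higher, 2 higher, 0 and 1 higher, against 16.3% of all tested genes. Endothelial and mural markers (6 of 6 tested) summed to 404 to 518, 494 to 594 and 593 to 614 CPM. Striatal projection neuron markers (7 of 7 tested) summed to 69.1 to 85.5, 73.2 to 119 and 65.9 to 75.1 CPM. Cerebellar granule cell markers (2 of 5 tested) summed to 35.1 to 53.8, 36.6 to 41.1 and 52.4 to 55.2 CPM, with the defining genes Gabra6 at no more than 4 reads in any library and Barhl1 at 0.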

How the data were processed

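PFC RNA of 7 libraries was enriched for polyadenylated transcripts. The authors deposited unnormalized read counts per gene, with the gene length they used, and TPM and FPKM values computed from these. The submitters' processing notes name STAR, featureCounts and the build hg19, although gene identifiers and coordinates in the table are mouse; versions and the mouse build were not given in the sources used here. The deposited TPM and FPKM served only as alternatives for shares of the summed level.

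The counts entered edgeR 4.0.16 under R 4.3.3 (filterByExpr by group, TMM, glmQLFit and glmQLFTest on group means of all 7 libraries, adjustment by Benjamini-Hochberg over 17254 genes). Log2 CPM used a prior count of 2. DESeq2 1.42.0, other scaling, no filter, length and GC corrections by loess (span 0.3, added through offsets), a replicate block, pairwise fits and leaving out each library were alternatives. GC content came from another mouse build and covered 99.8% of tested genes. The scripts were tested on simulated data. Members and lists were chosen with earlier results of these data known, and every member is named. Other list genes are named where their unadjusted p was under 0.05 in Alt vs Ctr or their role defines the list, and not every such gene is reported here. Promoter sequences are RefSeq's. Libraries held 16655697 to 20750857 counts, and replicates differed by 18.2 to 56.3 times the counting variance, so that the spread among 2 or 3 libraries per group sets the precision.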

Additional observations from a re-analysis of the deposited data

Results flagged for a closer look

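Gabra2 and Gabra3 drew attention because both Alt libraries lay above the Ctr mean and both Ref libraries below it, although for Gabra3 Ref replicate 2 was level with Ctr, at a log2 deviation of -0.000418 from its mean. The Alt vs Ref log2 fold change was 0.671 for Gabra2 and 0.343 for Gabra3. This comparison is itself the test of the difference between the alleles, and its adjusted p in edgeR was 0.236 and 0.327. The share of all tested genes with the same placing around the Ctr mean was not counted.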

How the results depend on the processing

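All alternatives kept the positive sign of Gabrb2, Gabrb1 and Gabra3 in both Alt comparisons. Members at an adjusted p under 0.05 in Alt vs Ctr were 2 with DESeq2 (against 6.36% of all tested genes), 2 with the numeric score in DESeq2 (3.32%), 2 without the low-count filter (5.52%) and 0 to 4 when single libraries were left out, the 4 being without Alt replicate 2 (18.3%). In Alt vs Ref they were 1 with DESeq2 (2.49%), 3 without the filter (3.16%) and 0 to 4 when libraries were left out, the 4 again without Alt replicate 2 (14.4%). Members at an unadjusted p under 0.05 were 4 without the filter in Alt vs Ctr (15.8% of all genes), 1 to 4 when libraries were left out (8.14% to 33.2%, the highest without Alt replicate 2), and 1 without Alt replicate 1 under the length correction (7.32%). In Alt vs Ref they were 0 to 4 when libraries were left out, with 0 without Alt replicate 1 (6.76%), 1 without Ref replicate 1 (4.19%) and 4 without Alt replicate 2 (28.9%), and 1 under that combined setting (6.47%). In Ref vs Ctr they were 0 without the filter (3% of all genes), 0 with the GC correction (3.05%), 0 to 1 when libraries were left out (1.25% to 5.52%) and 2 under the combined setting (6.83%). The member median in Alt vs Ctr ran from 0.0662 without Alt replicate 1 to 0.315 when single libraries were left out and was 0.317 with the replicate block, and in Alt vs Ref it was 0.48 with the length correction and 0.21 with the GC correction. All tested genes at an adjusted p under 0.05 in Alt vs Ctr numbered 1097 with DESeq2 and 1484 without the filter. At an unadjusted p under 0.05, leaving out libraries gave 1505 to 6259 of them in Alt vs Ctr.

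Signs also turned, among them that of Gabrd, which was -0.56 in Alt vs Ctr and -0.39 in Alt vs Ref as reported. With the length correction Gabra5 was 0.0927 in Alt vs Ctr and 0.174 in Alt vs Ref, and Gabrb1 in Ref vs Ctr was -0.0407. With the length correction and without Alt replicate 1, Gabra2 in Alt vs Ctr was -0.00923, Gabra5 0.123 and Gabrd 0.0953, Gabra5 and Gabrd in Alt vs Ref were 0.212 and 0.279, and Gabrb1 in Ref vs Ctr was -0.0406. When libraries were left out, values in Alt vs Ctr ran from -0.118 to 0.0207 for Gabra4 and from -0.336 to 0.00915 for Gabra5, in Alt vs Ref from -0.253 to 0.151 for Gabra5 and from -1.27 to 0.158 for Gabrd, and in Ref vs Ctr from -0.193 to 0.00294 for Gabra3, from -0.304 to 0.0927 for Gabra5 and from -0.189 to 0.197 for Gabrb1. The cause was not tested.

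Deviations of same-numbered libraries from their group means had correlations of -0.10 to 0.07. With 2 libraries in Ref and in Alt, the 2 deviations of a group mirror each other, so these correlations are not separate checks. With the replicate number as a block the members at an unadjusted p under 0.05 were 0 in Ref vs Ctr (against 2.49% of all genes), the block value of Gabrb2 in Alt vs Ctr was 1.46, and 2180 of all tested genes were called in Alt vs Ctr. The GC correction, the length correction without Alt replicate 1, and list and ratio values under the length correction or without Alt replicate 1 were added after seeing the data.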

Other observations

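Neighbouring protein-coding genes were counted within 1000000 bases of each member. Around Gabrb1 8 such genes other than members were tested, and 2 had an unadjusted edgeR p under 0.05 in Alt vs Ctr, both higher, namely Fryl (0.75) and Nfxl1 (0.70). Around Gabrb2 7 were tested, and 1 was lower, Pttg1 (-0.78), which encodes securin. Around Gabrd, in a gene-dense stretch, 52 were tested, of which 2 were higher and 5 lower, among them the mitochondrial ribosomal gene Mrpl20 (-1.21). Around Gabra3 18 were tested and 2 were higher, Atp2b3 (0.58), a plasma membrane calcium pump, and Zfp275 (0.40). Around Gabra4 1 of 4 was higher, Nfxl1 again, and around Gabra5 2 of 2 were higher, among them Gabrg3 (0.92), while 0 of 2 around Gabra2 reached this level. Against the 19.8% of all tested genes called at this level, these counts are given as a description.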
